A study of Mus musculus with 18 samples.

Results

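The genes described here encode the carriers of the inner mitochondrial membrane and the protein complexes of oxidative phosphorylation. They were chosen by symbol: nuclear protein-coding genes of the RefSeq table that begin with Slc25a, Ndufa, Ndufb, Ndufc, Ndufs, Ndufv, Sdha to Sdhd, Uqcr, Atp5 or Cox4 to Cox8. The rule found 147 genes of 21887, on 20 chromosomes: 47 Slc25a carriers, 41 complex I subunits, 8 complex I assembly factors (Ndufaf), 4 complex II subunits, 4 complex II assembly factors (Sdhaf), 8 complex III, 18 complex IV and 17 ATP synthase genes. The rule reads names only, so it also takes in members located elsewhere, such as Slc25a17, which is found in peroxisomes. The groups follow the symbol too, so a gene may stand in a group to which its protein does not belong. A gene was counted as having a peak when the centre of a BMAL1 peak lay inside it or within 10 kb of either end.

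BMAL1 is a DNA-binding protein at the core of the circadian clock. The study mapped where it binds in the genome by ChIP-seq, in which DNA bound by the protein is recovered with an antibody, here raised in chicken against the N-terminal domain, and sequenced. Wild-type C57BL/6 mice, 3 to 6 months old, lived under a cycle of 12 h light and 12 h dark with food and water always available. Their liver, kidney and heart were taken 6 h after lights on. Each tissue had 3 ChIP and 3 input libraries, 18 in all, and the 3 tissues came from the same animals. The authors merged all libraries of a tissue into 1 peak list, which held 4813 peaks for liver, 4034 for kidney and 2519 for heart. The lists hold no value per animal and no depth, so no value below has an error between animals and no test was made. The authors' score of each peak, a whole number, is used only to rank peaks within its own list. For the heart inputs the source label reads kidney while title and tissue read heart, and every heart value below rests on those libraries too. Peaks record binding and not transcripts, so the tissue labels could not be set against marker expression.

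Complexes I to IV of the respiratory chain pass electrons from NADH and succinate to oxygen and, complex II apart, pump protons across the inner membrane. ATP synthase uses that gradient to make ATP, and the Slc25a carriers move metabolites, nucleotides and cofactors across the same membrane. BMAL1 pairs with CLOCK and binds E-boxes, of which the canonical form is CACGTG, mostly during the light phase in mouse liver.

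Kidney peaks lay at 39 of the 147 genes (26.5%), against 18.0% of all protein-coding genes. Liver peaks lay at 29 (19.7%), against 18.1% of all genes, a share close to the background. Heart peaks lay at 8 (5.44%), against 11.5%. In all, 54 genes (36.7%) had a peak of at least 1 tissue, against 30.7% of all genes, and 93 had none. The 90 peaks at these genes formed 69 regions once overlapping peaks of different tissues were merged. No peak was counted at more than 1 of the 147 genes.

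**Figure D1:**
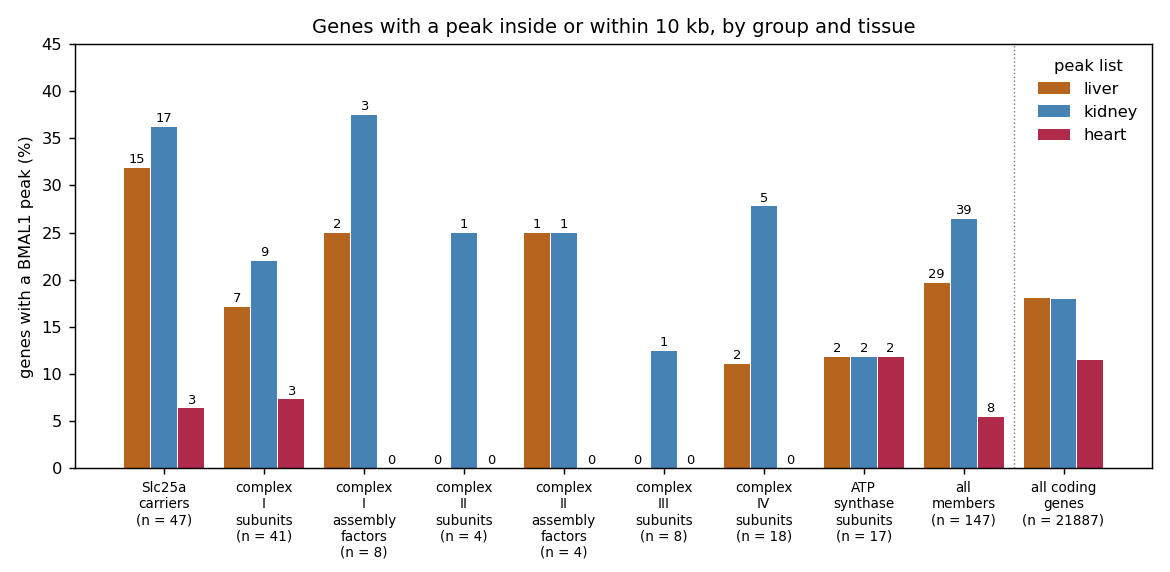
Bars give the percentage of genes in each group with a BMAL1 peak centre inside the gene or within 10 kb, for the liver, kidney and heart lists; numbers above bars are genes. Kidney bars reach 36.2% for the 47 Slc25a carriers, 3 of 8 complex I assembly factors and 26.5% for all members, against 18.0% of all coding genes, while heart bars are at 0 in 5 of the 8 groups.

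The genes were short, with a median length of 8396 bp against 17169 bp for all protein-coding genes. Inside the gene itself, peaks were found in 6.80% of members in the liver list (against 10.2% of all genes), 10.2% in the kidney list (against 9.66%) and 2.04% in the heart list (against 6.84%). Liver also lay below the background within 1 kb (10.2% against 13.1%) and 5 kb (13.6% against 15.5%), was close to it within 10 kb and lay above it within 50 kb. Heart lay below it at each distance tried, with 28 genes (19.0%) within 50 kb against 22.7%. With only the 2519 highest-scoring peaks of each list, 22 genes had a peak in liver (15.0% against 11.5%), 27 in kidney (18.4% against 12.8%) and 8 in heart.

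**Figure D2:**
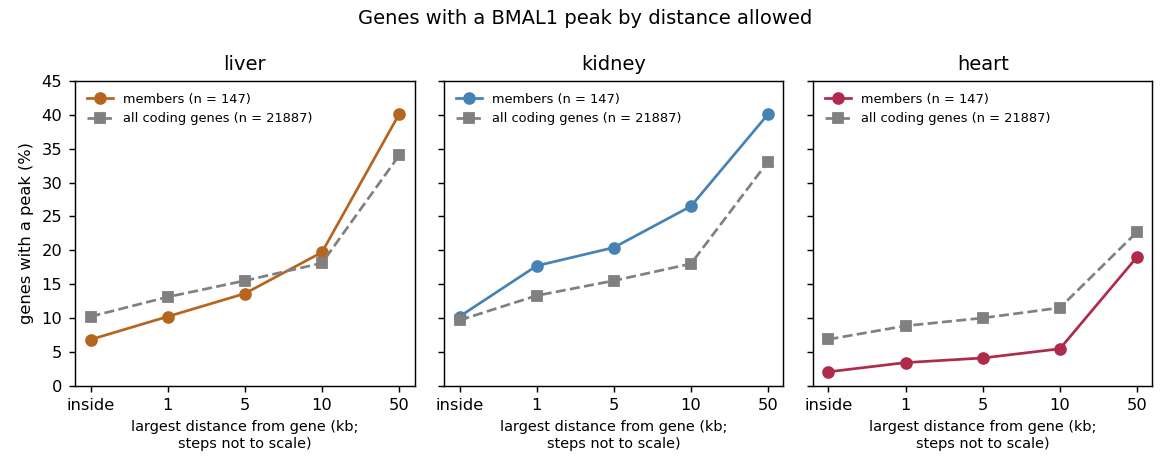
Percentage of the 147 members (coloured circles) and of all 21887 protein-coding genes (grey squares) with a peak, by the largest distance allowed between peak centre and gene. In kidney, members are above all genes at every step (17.7% against 13.3% at 1 kb), and in heart they are below at every step.

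A peak in only 1 tissue was found at 36 of the 54 genes (24.5% of all members, against 18.0% of all genes). Kidney alone accounted for 22 (15.0%, against 6.68%), liver alone for 11 (7.48%, against 7.00%) and heart alone for 3 (2.04%, against 4.30%). Liver and kidney without heart were found at 13 genes (8.84%, against 5.42%), and all 3 tissues at 4 (2.72%, against 4.35%). Liver and kidney peaks, with or without heart, lay at 17 genes (11.6%, against 9.78%). Overlapping liver and kidney peaks lay at 15 genes (10.2%, against 7.89%). No gene had kidney and heart peaks without a liver peak (against 1.57% of all genes), and 1, Atp5md, had liver and heart peaks without kidney (0.680%, against 1.32%). Some of these contrasts depended on the window. Overlapping liver and kidney peaks lay at 6.80% against 6.62% within 5 kb, and 5.44% against 5.57% with each peak given to its nearest gene. A peak in only 1 tissue was found at 19.7% against 16.2% within 5 kb, and 15.6% against 14.9% with the nearest gene.

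**Figure D3:**
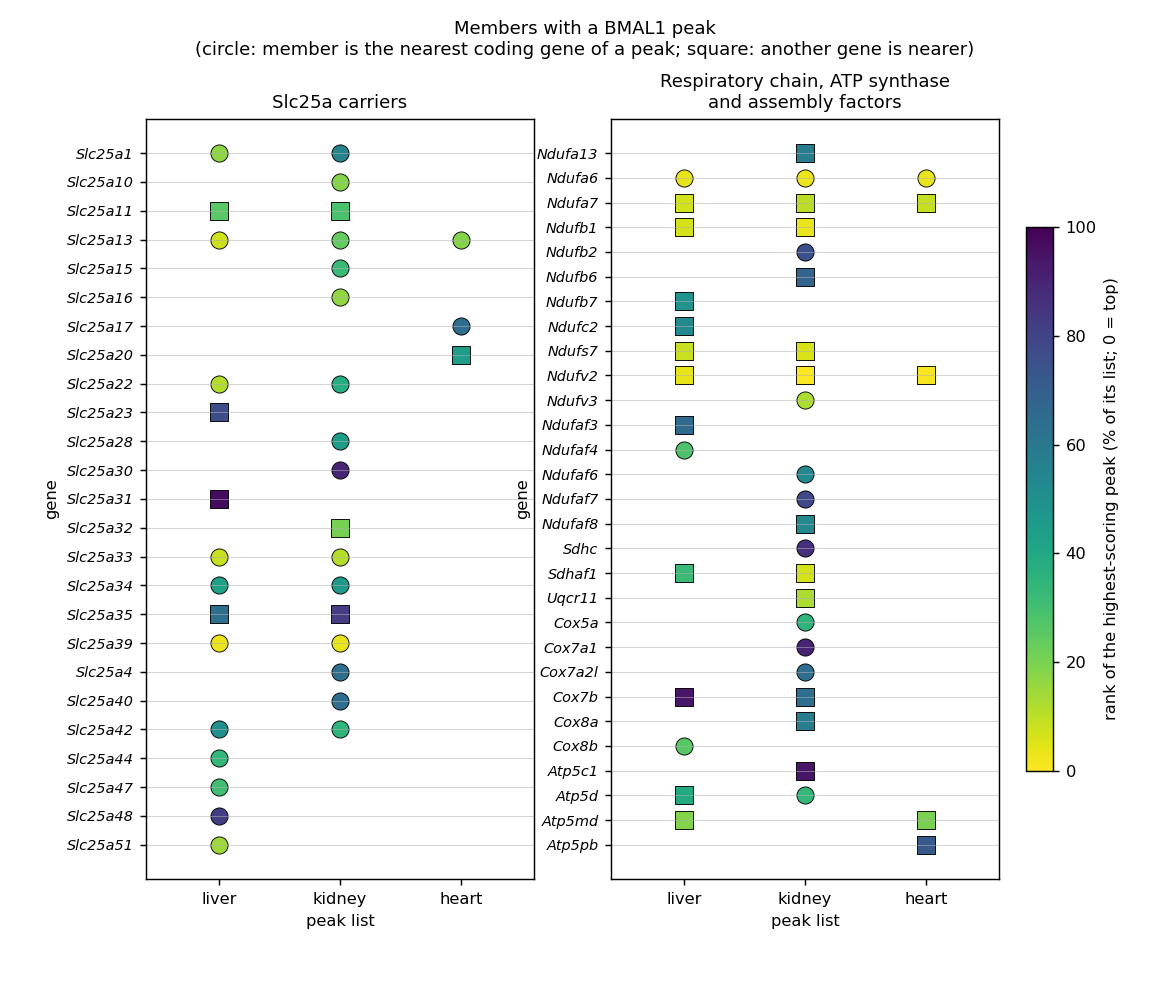
Each symbol is a gene with a peak in the list named below it; colour gives the rank of its highest-scoring peak as a percentage of the list, with 0 at the top. Circles mark genes that are the nearest coding gene of at least 1 of their peaks in that list and squares genes for which another gene is always nearer; the right panel holds more squares than circles, and the heart column holds 8 symbols.

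The 4 genes with peaks in all 3 tissues were Ndufa6, Ndufa7, Ndufv2 and Slc25a13. In each case the 3 peaks overlapped (2.72% of members at such a region, against 3.09% of all genes). Only at Ndufa6 and Slc25a13 did the peak lie at the gene's own start site.

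Ndufa6 encodes an accessory subunit of complex I. Its peaks scored 141 in liver (rank 184 of 4813), 127 in kidney (rank 111 of 4034) and 124 in heart (rank 83 of 2519), which places it in the top 10% of each list. The peak centres lay 14 to 40 bp downstream of the start site, as at chr15:82354153-82354394 in the liver list (mm10). A liver peak of score 70 lay 7284 bp upstream, between Ndufa6 and Cyp2d22. The start-site window of Ndufa6, the 300 bases from 250 before to 50 after the start that RefSeq gives for GRCm38.p6, holds no CACGTG. The window stops at 82354242, and the peaks reach further downstream, to 82354153 in liver and heart and 82354184 in kidney. That part of the peaks was not searched. The 120 bases before the start, chr15:82354292-82354411 on the minus strand, are shown because this was the highest-scoring peak in any of the 3 lists that lay at a member's own start window.

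Ndufa6: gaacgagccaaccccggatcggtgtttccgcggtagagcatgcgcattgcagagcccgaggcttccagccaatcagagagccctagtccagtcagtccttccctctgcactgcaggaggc

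Slc25a13 encodes citrin, the aspartate/glutamate carrier of the malate-aspartate shuttle and of the urea cycle in liver. Its peak scored 110 in liver (rank 362), 46 in kidney (rank 972) and 51 in heart (rank 464). The peak centres all lay upstream of the start site, by 56 bp in the liver list, 64 bp in the kidney list and 2 bp in the heart list. Slc25a13 had no other coding gene within 10 kb of its peaks. Its paralogue Slc25a12, the main form of this carrier in heart and muscle, had no peak in the 3 lists.

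Slc25a13 was also among the 4 genes with both a peak centre and a CACGTG in the start-site window, all of them carriers. The others were Slc25a33, a pyrimidine nucleotide carrier, Slc25a1, the citrate carrier that exports carbon for fatty acid synthesis, and Slc25a15, the ornithine carrier of the urea cycle. Their sequences are shown with the E-box in capitals, from RefSeq GRCm38.p6, all on the minus strand. The stretch lies inside the annotated gene span for Slc25a15 and mostly inside it for Slc25a13, so only 30 bases are given for these genes. The positions are chr6:6217281-6217310 for Slc25a13, chr8:22398337-22398366 for Slc25a15, chr4:149774268-149774335 for Slc25a33 and chr16:17928393-17928469 for Slc25a1.

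Slc25a13: cacagtctgagtCACGTGtcctggcccctc
Slc25a15: cgccctgccgcaCACGTGccgcggctccgg
Slc25a33: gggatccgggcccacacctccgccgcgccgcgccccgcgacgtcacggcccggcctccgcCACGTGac
Slc25a1: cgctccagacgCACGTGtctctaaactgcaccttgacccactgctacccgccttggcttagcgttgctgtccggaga

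In Slc25a15 the E-box began 77 bases before the start site and lay 9.5 bp from the centre of the kidney peak (score 38, rank 1295), its only peak. In Slc25a33 it began 8 bases before the start site, inside the liver peak (score 104, rank 413) and the kidney peak (score 70, rank 449). In Slc25a13 it began 125 bases before the start site and lay inside the liver and kidney peaks but outside the heart peak, 120.5 bp from its centre. In Slc25a1 it began 239 bases before the start site, inside the liver peak (score 77, rank 821) at 118.5 bp from the centre. The kidney peak of Slc25a1 (score 25, rank 2237) did not reach it.

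Start-site windows were available for 118 of the 147 genes, 133 windows in all. A peak centre of any tissue lay in 14 of them (10.5%), against 6.57% of the 21263 windows of protein-coding genes. By tissue these were 8 windows in liver (6.02%, against 3.22%), 11 in kidney (8.27%, against 4.46%) and 3 in heart (2.26%, against 2.10%). Both strands were covered, since CACGTG reads the same on each. The motif was present in 15 of the 133 windows (11.3%), against 7.84% of all, and in 4 of the 14 with a peak centre (28.6%), against 37.4% of the 1398 such windows of all genes. Within 50 bp of the peak centre it was present in 14.3% of the windows with a peak centre, against 30.9% over all genes. Of the 119 windows without a peak centre, 11 held it (9.24%, against 5.75%). These 11 belonged to Atp5g1, Atp5g3, Atp5l, Atp5pb, Ndufa7, Ndufv1, Slc25a14, Slc25a31 and Slc25a36. The windows with a peak centre but no CACGTG were those of Ndufa6, Ndufaf4, Ndufaf7, Ndufb2, Cox5a, Cox7a1, Atp5md, Slc25a39, Slc25a40 and Slc25a42. None of those 10 held CACGTT, a related E-box form, on either strand (read as AACGTG on the other).

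The Slc25a carriers had peaks at 25 of 47 genes (53.2%, against 30.7% of all genes). Their median length, 21491 bp, was above that of all genes. Liver peaks lay at 15 (31.9%, against 18.1% of all genes), kidney peaks at 17 (36.2%, against 18.0%) and heart peaks at 3 (6.38%, against 11.5%). Liver and kidney shared 8 without heart (Slc25a1, Slc25a11, Slc25a22, Slc25a33, Slc25a34, Slc25a35, Slc25a39 and Slc25a42), and Slc25a13 had all 3. Over all genes, 5.42% had liver and kidney peaks without heart and 4.35% had all 3. The highest scores were at Slc25a39, a carrier needed for glutathione import into mitochondria. One of its regions, inside the gene and about 1 kb upstream of the start site in the table, scored 152 in liver (rank 138, chr11:102408487-102408728) and 114 in kidney (rank 141). A second region at its start site scored 51 in liver and 39 in kidney. Its close relative Slc25a40 had a kidney peak of score 22 85 bp upstream of its start site, and a start site of Dbf4 was closer, at 37 bp.

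Slc25a22, a glutamate carrier, scored 92 in liver (rank 554) and 29 in kidney (rank 1874) at a region 515 to 541 bp downstream of the start site. A second kidney peak (score 34, rank 1530) lay 9779 bp from the gene and 2 bp from a start site of Rplp2. At Slc25a42, a coenzyme A carrier, liver and kidney peaks overlapped far inside the gene (scores 39 and 36), and the liver list added a peak at the start site (score 29). The kidney list added a peak inside the gene (score 22) and another 5330 bp upstream (score 23), nearer to Armc6. Slc25a11, the oxoglutarate carrier that works beside citrin in the malate-aspartate shuttle, had liver peaks of 63 and 43 and a kidney peak of 41. These lay 7810 to 8416 bp from the gene, inside both Pfn1 and Eno3.

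Kidney peaks alone lay at 8 carriers: Slc25a16 (score 57, rank 663), Slc25a10 (54 and 27), Slc25a32 (50), Slc25a15 (38), Slc25a28 (30), Slc25a4 (22), Slc25a40 (22) and Slc25a30 (15). Slc25a10 carries dicarboxylates, Slc25a32 folate or flavin, and Slc25a28 (mitoferrin 2) iron. Liver peaks alone lay at 6: Slc25a51 (82, rank 713), Slc25a47 (56), Slc25a44 (52, 46 and 41), Slc25a23 (25), Slc25a48 (23) and Slc25a31 (17). Another gene was nearer for the liver peaks of Slc25a23, 16 bp from a start site of Crb3, and Slc25a31, and for the Slc25a44 peak of 41. The same held in kidney for the Slc25a32 peak and the Slc25a10 peak of 27. Slc25a51 imports NAD, and Slc25a44 carries branched-chain amino acids. The only carriers with heart peaks alone were Slc25a20 (27, rank 1123) and Slc25a17 (20, rank 1624). Over all genes, 6.68% had kidney peaks alone, 7.00% liver peaks alone and 4.30% heart peaks alone, so 2 of 47 in heart was near the background. Slc25a20 exchanges carnitine for acylcarnitine in fatty acid oxidation, but its peak lay 7489 bp from the gene and 12 bp from a start site of Prkar2a. The 22 carriers with no peak included the phosphate carrier Slc25a3, the ADP/ATP carrier Slc25a5 and mitoferrin 1 (Slc25a37).

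Complex I had peaks at 11 of 41 subunit genes (26.8%, against 30.7% of all genes). Liver peaks lay at 7 (17.1%, against 18.1% of all genes), kidney peaks at 9 (22.0%, against 18.0%) and heart peaks at 3 (7.32%, against 11.5%). The median score was 109 for the 8 liver peaks, 65 for the 11 kidney peaks and 124 for the 3 heart peaks. Over all peaks near coding genes the medians were 42, 29 and 27. A complex I gene was the nearest coding gene of at least 1 of its peaks at Ndufa6 in each tissue and at Ndufb2 and Ndufv3 in kidney. At the other 8 genes another gene was always nearer.

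Ndufv2, which encodes a core iron-sulfur subunit of the NADH-oxidising module, had the highest score of any member in kidney (190, rank 26 of 4034) and heart (204, rank 20 of 2519), with 143 in liver (rank 176). The peak, chr17:66077023-66077220 in heart, lay 1662 to 1680 bp beyond the end of Ndufv2 and more than 24 kb from its start site. Its centre lay 69 to 87 bp upstream of a start site of Ankrd12, whose window holds 2 CACGTG motifs separated by 11 bases. Ndufb1, an accessory subunit, scored 115 in liver (rank 314) and 118 in kidney (rank 129). That peak lay 59 to 82 bp upstream of a start site of Atxn3 and 9771 to 9794 bp from Ndufb1. The Atxn3 window also held 2 CACGTG motifs, 65 bases apart. Ndufs7, another core iron-sulfur subunit, scored 104 in liver (rank 413) and 91 in kidney (rank 250), at a region inside Dazap1 about 8 kb away. All 5 motifs lay inside the peaks of each tissue that had one there.

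These motifs at the neighbours are shown, again with the E-box in capitals, because 3 of the 5 complex I genes with both liver and kidney peaks had that peak at a neighbour's start site. The positions are chr17:66077090-66077119 and chr17:66077073-66077102 for Ankrd12 and chr12:101958316-101958345 and chr12:101958245-101958274 for Atxn3, all on the minus strand. For Dazap1 the position is chr10:80264764-80264786 on the plus strand, where the RefSeq window begins.

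Ankrd12 first: gcctgcaggagtCACGTGtccgcccgggtc
Ankrd12 second: gtccgcccgggtCACGTGctcgcgccgcag
Atxn3 first: cgccgcccaggtCACGTGtcccgtgctccc
Atxn3 second: gttggcgagaggCACGTGgctagggcgggg
Dazap1: gcacgCACGTGgctgtctccctc

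Ndufa7, the remaining gene with peaks in all 3 tissues, scored 114 in liver (rank 327), 74 in kidney (rank 410) and 80 in heart (rank 222). The peak lay 6802 to 6836 bp upstream of Ndufa7, inside Kank3, and no start window of the table covered it. The start-site windows of Ndufa7 itself held CACGTG without a peak. Kidney peaks alone lay at Ndufv3 (65 and 29), Ndufa13 (24 and 17), Ndufb6 (21) and Ndufb2 (19), of which Ndufb2 had its peak 105 bp upstream of its own start. The peak of 65 lay 7836 bp from Ndufv3 and 208 bp from a start site of Wdr4, so Ndufv3 was nearest only for the peak of 29. The Ndufb6 peak lay 86 bp from a start site of Topors. Liver peaks alone lay at Ndufb7 (40) and Ndufc2 (37), 9403 and 9965 bp from the gene. Ndufc2 was the gene just inside the 10 kb limit. The nearest peak outside the limit was a liver peak of score 32, 10866 bp from Ndufb7.

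The 8 complex I assembly factors, which help build the complex and are not part of it, had peaks at 5 genes, each in 1 tissue only (62.5%, against 18.0% of all genes with a peak in 1 tissue only and 30.7% with any). Ndufaf4 had a liver peak 14 bp upstream of its start site (score 59, rank 1362). Ndufaf7 had a kidney peak 10 bp downstream of its start (18), and Ndufaf6 a kidney peak inside the gene (26). The liver peak at Ndufaf3 (30) and the kidney peak at Ndufaf8 (26) had another gene nearer. No heart peak lay at these 8 genes, where 11.5% of all genes had one.

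Complex II subunits, complex II assembly factors and complex III each had peaks at 1 gene, of 4 (25.0%), 4 (25.0%) and 8 (12.5%), against 30.7% of all genes. Of the 4 subunit genes of complex II, or succinate dehydrogenase, only Sdhc had a peak, inside the gene in kidney (score 16, rank 3480 of 4034). Among its assembly factors only Sdhaf1 did, with scores of 88 in kidney (rank 270) and 54 in liver (rank 1557), more than 7 kb from the gene and inside Alkbh6. Of 8 complex III genes only Uqcr11 had a peak, in kidney (65, rank 513), 4062 bp from the gene and inside Mbd3.

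Complex IV, cytochrome c oxidase, had peaks at 6 of 18 genes (33.3%, against 30.7% of all genes). By tissue these were 5 in kidney (27.8%, against 18.0%), 2 in liver (11.1%, against 18.1%) and none in heart (against 11.5%). Kidney peaks lay at the start sites of Cox5a (score 36, 55 bp upstream), Cox7a2l (22, 306 bp) and Cox7a1 (15, 175 bp), and further away at Cox8a (24) and Cox7b (22). Cox7a2l encodes a factor that joins complexes III and IV into supercomplexes. Liver peaks lay 3024 bp upstream of Cox8b (62, rank 1251) and near Cox7b (18). Cox7b had separate peaks in liver and kidney, at the start windows of its neighbours Magt1 and Atp7a.

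Several members are the heart and muscle forms of their subunit or carrier: Cox6a2, Cox7a1, Cox8b and the ADP/ATP carrier Slc25a4. None of these 4, singled out after their values were seen, had a heart peak, where 11.5% of all genes had one, so a count of 0 of 4 is near the background. Cox7a1 and Slc25a4 had weak kidney peaks (15 and 22), Cox8b had a liver peak and Cox6a2 had no peak.

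ATP synthase had peaks at 4 of 17 genes (23.5%, against 30.7%). Atp5md, a small subunit of the membrane part, scored 74 in liver (rank 888) and 48 in heart (rank 506). The peak centres lay 149 to 159 bp upstream of its start and 30 to 40 bp from a start of Pdcd11. Atp5d, of the central stalk, had a kidney peak of 37 inside the gene, also inside Cbarp, and a liver peak of 47 at 7945 bp. Atp5pb had a heart peak of 18, 431 bp upstream and inside Wdr77. Atp5c1 had a kidney peak of 14, the lowest score of that list, 7420 bp away and at the start of Taf3.

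The member was the nearest coding gene for 18 of the 36 liver peaks at members, 26 of the 46 kidney peaks (56.5%) and 3 of the 8 heart peaks (37.5%). Over all peaks within 10 kb of a coding gene, taken with each such gene in turn, these shares were 75.2%, 72.2% and 76.7%. Of the 35 regions at carriers, 23 had the carrier as nearest gene. Of the 34 at the other genes, 13 did, and 9 had their centre in the start window of another gene and not of the member. No other coding gene lay within 10 kb of 22.2% of the liver peaks at members, 26.1% of the kidney peaks and 25.0% of the heart peaks. The corresponding shares over all genes were 53.5%, 48.8% and 55.6%. When each peak was given to its nearest gene only, 14 members kept a peak in liver (9.52%, against 13.7%), 24 in kidney (16.3%, against 13.3%) and 3 in heart (2.04%, against 8.90%). The heart genes were Ndufa6, Slc25a13 and Slc25a17.

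Peaks within 1 kb of the member's own start site made up 35.5% in liver (11 of 31 with a known start), 40.5% in kidney (17 of 42) and 4 of 8 in heart. The same shares over all genes were 29.7%, 38.2% and 38.4%. Liver scores at members had a median of 53 (range 17 to 152), kidney scores 29 (range 14 to 190) and heart scores 49.5 (range 18 to 204). Peaks near any coding gene had medians of 42, 29 and 27. In the lower 50% of its list by rank lay 25.0% of member peaks in liver, against 47.0% of all peaks near a coding gene, and 45.7% in kidney, against 47.7%. Of the kidney peaks at members, 30 (65.2%) were found in no other tissue, against 56.6% of all kidney peaks near a coding gene. In liver there were 19 such peaks (52.8%, against 63.1%) and in heart 3 (37.5%, against 62.8%). These single-tissue peaks had a median score of 24 in kidney, against 58 for the 16 kidney peaks shared with another tissue. In liver the medians were 41 and 92 (17 shared peaks), and in heart 20 and 80 (5 shared peaks). The same medians over all peaks were not computed.

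**Figure D4:**
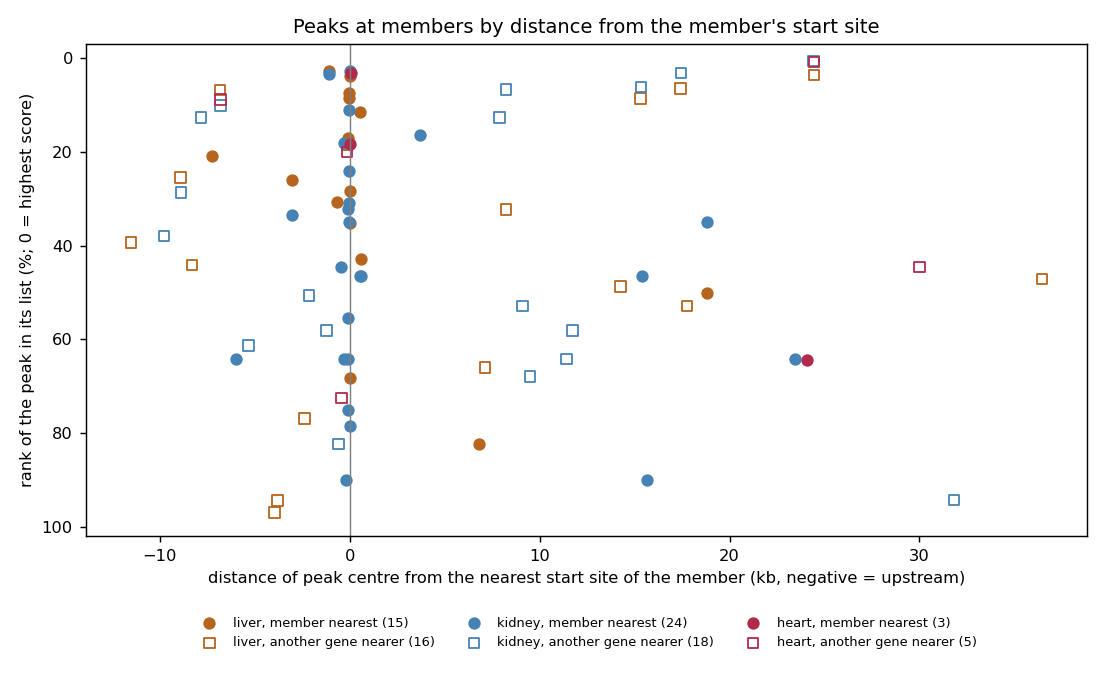
Each symbol is a peak at a member with a known start site, placed by the signed distance of its centre from that start (kb) and by its rank in its own list (percent, 0 at the top). Of the 42 filled circles, where the member is the nearest coding gene, 28 lie within 1 kb of its start and 14 farther away, up to 24102 bp at Slc25a17. Of the 39 open squares, where another gene is nearer, 4 lie within 1 kb, and the squares include the highest ranks of kidney and heart, at Ndufv2.

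Other mitochondrial genes were counted by the same distance rule in 5 fixed lists with 59 genes. The lists were drawn up with earlier results of these data known, so their shares are description only. Peaks of any tissue lay at 28 of the 59 genes (47.5%, against 30.7% of all genes). By tissue these were 20 in liver (33.9%, against 18.1%), 17 in kidney (28.8%, against 18.0%) and 5 in heart (8.47%, against 11.5%). The genes with all 3 tissues were Mtch2, an outer-membrane protein of the carrier family, and Mpc1, a subunit of the mitochondrial pyruvate carrier. Mtch2 scored 81 in liver, 78 in kidney and 72 in heart, 38 bp from its start site. Mpc1 scored 51, 89 and 77 at a region 423 bp from its start site. Both had overlapping peaks of the 3 tissues.

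Mtch2 and Mpc1 belong to a list of 7 other mitochondrial carriers, of which 5 had a peak. Liver and kidney peaks lay at 4 genes each and heart peaks at 2. The counts of this and the next 4 lists stand against 18.1% of all genes in liver, 18.0% in kidney, 11.5% in heart and 30.7% in any tissue.

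Of 8 enzymes that work with the carriers, such as the transaminases Got1 and Got2 and the carnitine palmitoyltransferases, 6 had a liver peak, 2 a kidney peak and none a heart peak. Citric acid cycle genes had peaks at 6 of 14, with 3 in liver, 5 in kidney and none in heart. Cytochrome c and assembly genes of complexes III and IV had peaks at 5 of 21, with 3 in liver, 1 in kidney and 2 in heart. Of 9 regulators of mitochondrial genes, 5 had a peak. They included the nuclear receptor gene Esrra (116 in liver, rank 308, and 73 in kidney, 107 bp upstream of its start) and the coactivator gene Ppargc1b (105 in liver and 80 in kidney).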

How the data were processed

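Reads were processed by the submitters, whose processing notes name Bowtie2, SAMtools, HOMER and the build mm10 with no roles or versions. Per the series' design text, the authors combined a tissue's libraries, ChIP and input, before calling peaks, so replicates cannot be compared. The deposited score has no stated scale. All liver peaks had a width of 242 bp, kidney peaks one of 188 bp and heart peaks one of 198 bp. The calling thresholds were not given in the sources used here, and depth is unknown.

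Genes came from RefSeq GRCm38.p6, the assembly that mm10 corresponds to, without the mitochondrial chromosome and unplaced sequence. Start sites came from the RefSeq promoter table, which had 118 of the 147 members. No genome sequence was used here, so the planned E-box search in whole peaks was made in the 300-base start-site windows instead. Peaks of different tissues were merged when they overlapped by at least 1 bp. A gene was nearest when no other coding gene lay closer, with ties kept. Counts are set beside the same share of all protein-coding genes, members included. Lists and named genes followed fixed rules: members at a region of all 3 tissues, the 8 highest scores per tissue and the 5 highest among members with peaks in that tissue only. Other genes were named after their values were seen. The members and lists were chosen with earlier results of these data known. The counting was tested on simulated peaks planted at real genes. Python 3.11.15 and pandas 2.3.3 were used.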

Additional observations from a re-analysis of the deposited data

How the results depend on the processing

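Giving each peak to its nearest gene only moved all 7 counts by over 1.5 times, the 50 kb distance 6 of them and the 1 kb distance 5. The count of members with a peak in 1 tissue only was not moved so far by distance, but its share came closer to that of all genes. Within 10 kb it was 24.5% against 18.0%. It was 16.3% against 14.3% within 1 kb, 19.7% against 16.2% within 5 kb and 25.2% against 22.6% within 50 kb. Within 1 kb, members with a peak numbered 15 in liver (10.2%, against 13.1% of all genes) and 5 in heart (3.40%, against 8.83%). Those with peaks of all 3 tissues numbered 2 (1.36%, against 3.00%) and those at a region of all 3 tissues 2 (1.36%, against 2.20%). Those at a region of liver and kidney peaks numbered 9 (6.12%, against 5.59%). Within 50 kb these counts were 59 in liver, 59 in kidney, 28 in heart, 13, 9 and 25. With the nearest gene, members with a peak numbered 14 in liver (9.52%, against 13.7%), 24 in kidney (16.3%, against 13.3%) and 3 in heart (2.04%, against 8.90%). Peaks of all 3 tissues lay at 2 (1.36%, against 2.90%) and a region of all 3 tissues at 2 (1.36%, against 2.10%). A region of liver and kidney peaks lay at 8 (5.44%, against 5.57%). Members with a peak in 1 tissue only numbered 23 (15.6%, against 14.9%). The upper 50% of each list by score left 22 members in kidney (15.0%, against 10.7%). It left 17 with a peak in 1 tissue only (11.6%, against 9.62%), and the top 2519 peaks per list left 21 (14.3%, against 13.4%). Where a setting admits fewer peaks or genes, lower counts follow from its construction. The other 40 of 61 alternatives, among them leaving out assembly factors, a stricter or looser overlap rule, other start-site windows and the wider E-box set, stayed within 1.5 times the count or, for percentages, within the 95% binomial interval. Those intervals are wide, since they rest on 8 to 42 peaks or 14 windows. They also treat peaks as independent, although some share a gene, and the alternatives reuse the same peaks or windows. Staying inside an interval is a looser rule than the one for counts, and the intervals give no error between animals. The E-box share fell from 28.6% to 14.3% within 50 bp of the peak centre and still lay inside its interval. No paired analysis was possible because each list merges the replicates, which also left no replicate to leave out. Sites missing from a list may lie below its threshold, and depth per list is unknown.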
